A study of Homo sapiens with 26 samples.

Results

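The genes described here are 10 protein-coding genes around CDKN2A on the short arm of chromosome 9, in band 9p21. They were chosen by symbol, as the rows whose Ensembl identifier maps to CDKN2A, CDKN2B, MTAP, DMRTA1, KLHL9, FOCAD, HACD4, ELAVL2, PLAA or CAAP1, and all 10 were found among the 41078 genes of the table. Messenger RNA had been sequenced once from each of 26 single cell-derived cell lines (SCDCLs), which were grown from single cells of pancreatic ductal adenocarcinoma lines by limiting dilution, so each library stands for 1 clone and none has a replicate library. By their labels, 12 libraries came from BxPC3, a line of the classical subtype, and 14 from Panc-1, a line of the basal-like subtype, and no other genotype or treatment group is given. Gemcitabine is entered as treatment in all sample labels, but the methods use it only in viability assays run apart from the RNA samples. Polyadenylated RNA was sequenced with its strand known, and totals ranged from 27035724 to 34945608 estimated counts.

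CDKN2A encodes both p16INK4A, which inhibits the cyclin D kinases CDK4 and CDK6 and so keeps RB active, and ARF, a protein with its own first exon that reads the shared exon in another frame. CDKN2B encodes the related inhibitor p15INK4B, and MTAP, next to them, encodes the phosphorylase that returns methylthioadenosine to the methionine salvage pathway. Deletions of 9p21 are among the most frequent losses in pancreatic cancer, they often remove MTAP together with CDKN2A, and they can reach the type I interferon genes on the telomeric side.

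The libraries were divided by SMAD4, a mediator of TGF-beta signalling on chromosome 18 which the BxPC3 line has lost and the Panc-1 line retains. SMAD4 was under 1 TPM (TPM is a share of all transcripts, corrected for transcript length) in 12 libraries, where it reached at most 0.0440 TPM, and was at 28.1 TPM or more in the other 14, with a highest value of 52.2 TPM. Of the 12, 5 are labelled BxPC3 and 7 Panc-1, and of the 14, 7 carry each label, so that SMAD4 and label disagree in 7 BxPC3-labelled and 7 Panc-1-labelled libraries. They are therefore called the 12 libraries with low SMAD4 and the 14 libraries with SMAD4, no library was assigned to a cell line from these values, and the division is used as a description, with no test across it. Totals ranged from 27144920 to 34945608 estimated counts in the 12 and from 27035724 to 32601392 in the 14. Markers of cell type also moved with the division: the sum of the epithelial markers CDH1, EPCAM and KRT19 was 1564 to 3576 TPM in the 12 and 568 to 2101 TPM in the 14, and that of the mesenchymal markers VIM, ZEB1 and CDH2 was 4.05 to 80.0 TPM and 3107 to 4563 TPM. By medians, KRT19 made up most of the epithelial sum, and its ranges overlapped, whereas CDH1 and EPCAM were higher in all of the 12. Their medians were 136 and 308 TPM in the 12 and 2.62 and 13.5 TPM in the 14. VIM made up most of the mesenchymal sum in the 14. VIM and ZEB1 were higher in all of the 14, and CDH2 overlapped. The part of this shift in the values below was not tested. The sum of PTPRC, CD3E and CD68, held as leukocyte markers, was 5.37 to 27.4 TPM in the 12 and 42.5 to 141 TPM in the 14, nearly all of it CD68, with PTPRC and CD3E under 1 TPM in all 26. COL1A1, DCN and LUM, for fibroblasts, summed to 9.60 to 27.6 and 2.06 to 38.7 TPM, and PECAM1 and VWF, for endothelium, to 0.976 to 6.13 and 0.321 to 5.39 TPM, with LUM and VWF under 1 TPM in all 26. Library 23, labelled BxPC3 and with SMAD4, stood apart from the other 13 by its median ratio over the genes from the end of 9p to C9orf72. Some genes there were not raised. The genes described here lie within this span, and their values in the 14 are also given without library 23 where it changes them.

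No library held a count of CDKN2A, and CDKN2B was all but absent as well. CDKN2A (ENSG00000147889, GRCh38 chr9:21967752-21995301, minus strand) was at 0 estimated counts throughout, in all of the 12 libraries and all of the 14. A count of 0 allows up to 3 counts, which corresponded to 0.229 to 0.306 TPM in the 12 libraries and 0.241 to 0.294 TPM in the 14, for counting error only. CDKN2B (ENSG00000147883, chr9:22002903-22009305, minus strand), the neighbour toward the centromere, had 0 counts in 24 libraries. It had 1.00 count in library 5, of the 12, and 1.00 count in library 12, of the 14. Every library was thus at or under the level of 3 counts for both inhibitors, no difference between labels or sets was detectable at this depth, and no fold was computed. In bulk RNA, fewer cells that express a gene and less RNA per cell cannot be told apart.

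Around this shared gap, the genes that were still expressed differed between the sets. In the 12 libraries with low SMAD4, 7 of the 10 genes were under 1 TPM in every library, namely HACD4, KLHL9, MTAP, CDKN2A, CDKN2B, DMRTA1 and ELAVL2, where 31.1% of all protein-coding genes were. In the 14 libraries, 4 of the 10 were, namely HACD4, CDKN2A, CDKN2B and ELAVL2, against 33% of all protein-coding genes. At most 1 count in every library was found for 3 of the 10 genes in the 12 libraries (background 11.4%) and for 2 in the 14 (background 12.7%), the additional gene in the 12 being DMRTA1. Of the 10 genes, 7 passed the filter on low counts. Among these 7, KLHL9 and DMRTA1 were higher in all of the 14 libraries than in any of the 12, where 15.4% of the 16008 genes tested did the same, and none was higher in all of the 12, where 14.6% of genes were. Without library 23 the ranges of 4 of the 7 did not overlap, KLHL9 and DMRTA1 again higher in the 13 (15.6% of genes) and CAAP1 and PLAA higher in the 12 (15.3% of genes). With backgrounds of this size, the counts are a description of these genes and not a result about the locus.

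**Figure D1:**
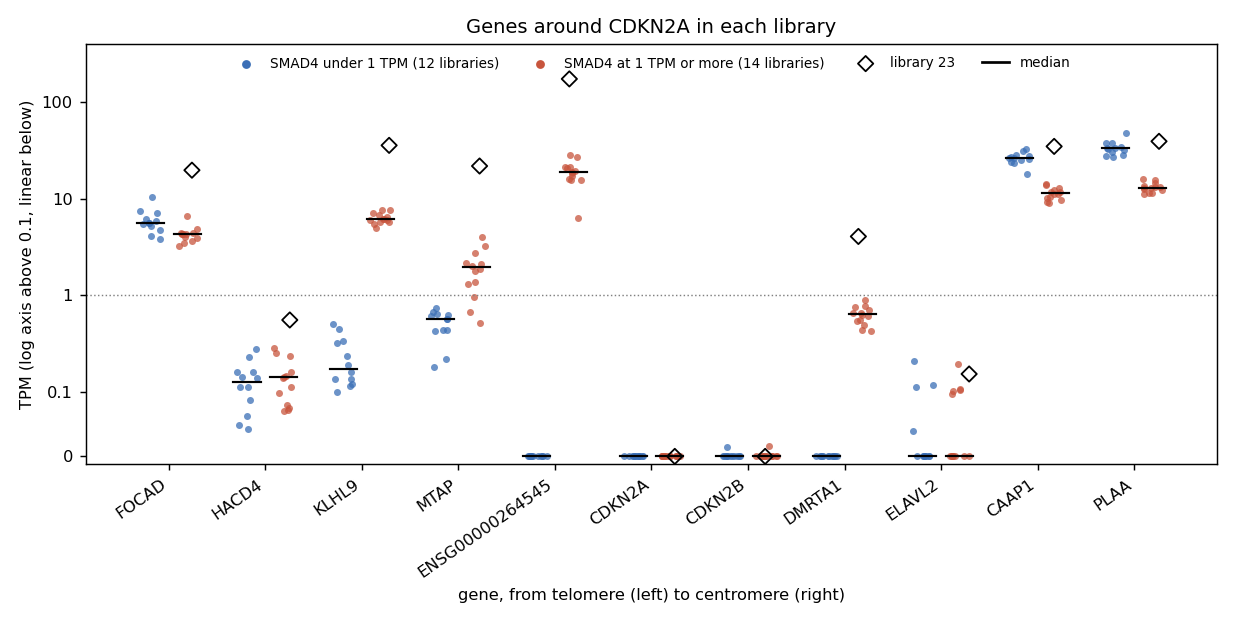
TPM of each gene, ordered from telomere to centromere, in the 12 libraries with SMAD4 under 1 TPM (blue) and the 14 with SMAD4 at 1 TPM or more (red), 1 point per library, with bars at the medians, an open diamond for library 23 and a dotted line at 1 TPM. CDKN2A lies at 0 in every library, KLHL9 and DMRTA1 separate the sets, and library 23 lies above the other 13 at FOCAD, HACD4, KLHL9, MTAP, DMRTA1, CAAP1 and PLAA.

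DMRTA1 (ENSG00000176399, chr9:22446824-22455740, plus strand), which encodes a transcription factor of the DM-domain family, is the first protein-coding gene past CDKN2B toward the centromere. It had 0 counts in all 12 libraries with low SMAD4. In the 14 libraries with SMAD4 it ranged from 36.4 to 365 estimated counts with a median of 52.9, or 0.432 to 4.07 TPM with a median of 0.641. No library of either set reached the range of the other. Against the level of 3 counts per library, the median of the 14 was at least 16.3-fold higher, and at least 16.1-fold higher without library 23, whose 4.07 TPM was the highest value. The 13 others stayed between 0.432 and 0.887 TPM, so even where DMRTA1 was found its level was low.

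KLHL9 (ENSG00000198642, chr9:21329665-21335404, minus strand) encodes an adaptor that brings substrates to the CUL3 ubiquitin ligase in mitosis, and it lies among the interferon genes on the telomeric side. In the 12 libraries it was at 0.101 to 0.503 TPM with a median of 0.175, from 8.89 to 39.2 estimated counts. The 14 libraries had it at 4.95 to 35.7 TPM with a median of 6.20, from 480 to 3267 counts, and without library 23 the highest value was 7.73 TPM. On the log2(TPM + 1) scale the mean was 0.29 ± 0.15 (SD, n = 12) and 3.03 ± 0.64 (SD, n = 14), or 2.86 ± 0.16 (SD, n = 13) without library 23, and the medians in TPM differed 35.5-fold. The sets did not overlap, and the lowest of the 14 lay above the highest of the 12. KLHL9 shares 31 of its 5710 31-base words with transcripts of KLHL13, its close relative on the X chromosome, the most for any other gene of the table, and KLHL13 was at 0.14 to 5.54 TPM in the 12. Its part in the residual counts was not tested.

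MTAP (ENSG00000099810, chr9:21802636-21937651, plus strand) ends telomeric of CDKN2A. In the 12 libraries it was at 0.182 to 0.746 TPM with a median of 0.573, from 9.16 to 36.3 estimated counts. The 14 libraries had it at 0.515 to 21.8 TPM with a median of 1.95, from 21.5 to 969 counts, and without library 23 the highest value was 4.03 TPM. The medians differed 3.40-fold, and the ranges overlapped through libraries 9 and 19, which held 31.7 and 21.5 counts. On the log2(TPM + 1) scale the mean was 0.59 ± 0.18 (SD, n = 12) and 1.68 ± 0.95 (SD, n = 14), or 1.46 ± 0.50 (SD, n = 13) without library 23. MTAP was therefore low in the 12 libraries, but, unlike DMRTA1, it was not at 0 in any.

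The assignment of reads at MTAP depends on a second annotated transcript. ENSG00000264545 (ENST00000404796, chr9:21802636-22029594, plus strand) has 5 exons, of which exons 1 to 4 are exons of MTAP. Exon 5 (chr9:22029433-22029594) is an exon of CDKN2B-AS1, the antisense RNA of the locus, which was not among the 41078 genes measured. The 211230 bases between exons 4 and 5 contain the end of MTAP and the whole of CDKN2A and CDKN2B. The 30 bases on each side of this junction are shown because they join an exon of MTAP to an exon beyond CDKN2B, with the bases of exon 5 in capitals, on the plus strand, from the GENCODE 44 transcript sequence.
ENST00000404796 junction of exons 4 and 5: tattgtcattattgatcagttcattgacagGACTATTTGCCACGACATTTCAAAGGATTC
Of the 592 31-base words of this transcript, 567 also occur in transcripts of other genes, 433 of them in MTAP.

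ENSG00000264545 had 0 counts in all 12 libraries with low SMAD4. Its range in the 14 was 6.26 to 174 TPM with a median of 19.1, from 82.8 to 2511 counts, and without library 23 the highest value was 28.1 TPM. Every one of the 14 lay above every one of the 12, and the median of the 14 was at least 78.1-fold above the level of 3 counts. Together, MTAP and ENSG00000264545 held 9.16 to 36.3 estimated counts in the 12 libraries and 136 to 3481 in the 14, or 136 to 555 without library 23. ENSG00000264545 took 60.8% to 93.1% of this sum in the 14 libraries and 0% in the 12. These estimates are not counts of reads across the junction, and reads in exons 1 to 4 can be given to either gene. CDKN2B-AS1 had no estimate of its own, so reads of it in exon 5 could be given to ENSG00000264545. Its part in these counts was not tested.

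**Figure D2:**
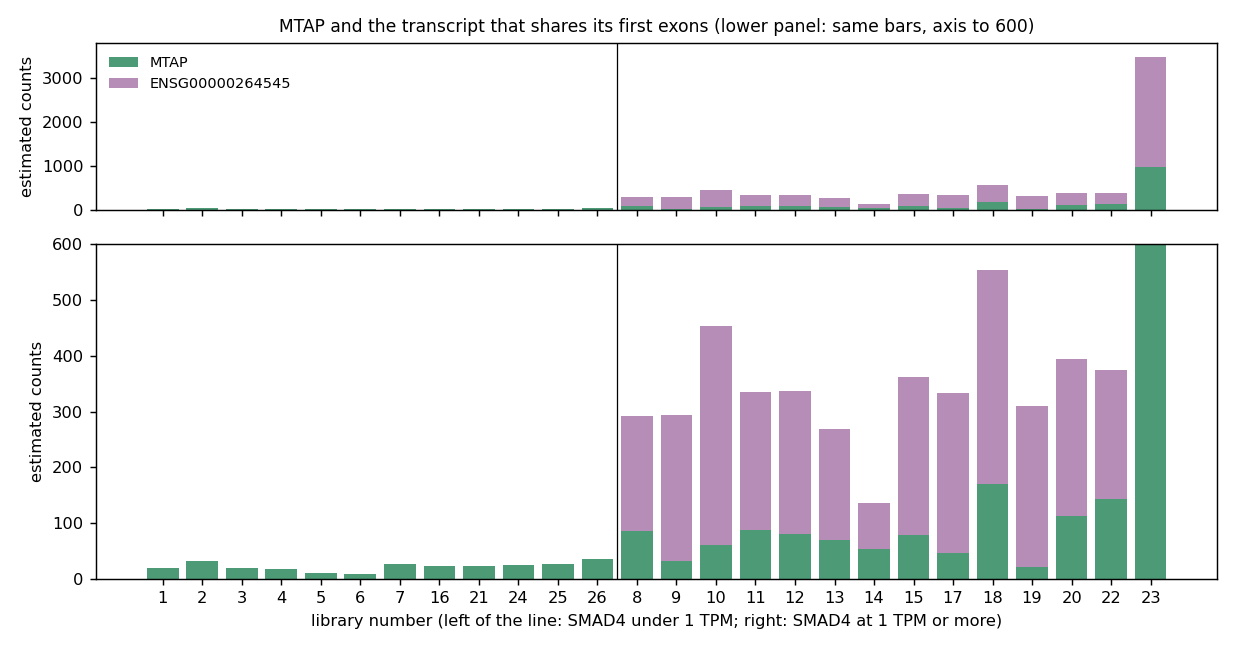
Estimated counts of MTAP (green) and ENSG00000264545 (purple), stacked, 1 bar per library, with the 12 libraries with SMAD4 under 1 TPM to the left of the line and the 14 others to the right, and with a lower panel that shows the same bars on an axis to 600. ENSG00000264545 is at 0 in the 12 libraries and makes up most of the sum in the 14, and library 23 reaches 3481 counts.

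The MTAP counts of the 12 libraries came with another mean transcript length. This length, which the authors' table gives for each gene and library as the average over the transcripts found, was 1144 to 4954 bases with a median of 2966 in the 12 libraries, and 661 to 1834 bases with a median of 1198 in the 14. MTAP shares 1713 of its 14641 31-base words with transcripts of 5397 other genes of the table, or 11.7%. The gene sharing most, ERVFRD-3, holds 654 of these words. It is a pseudogene that lies within MTAP on the same strand, with a median of 0 TPM in both sets. The share of words held in common with other genes was 1.103% for KLHL9 and 0.126% for DMRTA1, and CAAP1 shared no word. The part of shared words in the MTAP counts of the 12 was not tested.

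HACD4 (ENSG00000188921, chr9:20999509-21031640, minus strand), which encodes a dehydratase of the very-long-chain fatty acid cycle, was low everywhere. It was at 0.0433 to 0.280 TPM in the 12 libraries, with a median of 0.127, and at 0.0699 to 0.556 TPM in the 14, with a median of 0.142. The ranges overlapped, and without library 23 the highest value of the 14 was 0.288 TPM. HACD4 thus gave little information on where expression stopped, since it was under 1 TPM on both sides. ELAVL2 (ENSG00000107105, chr9:23690104-23826337, minus strand), which encodes a neuronal RNA-binding protein, was uninformative on the centromeric side. It had 0 counts in 8 of the 12 libraries and at most 3.07 counts in the others, and 0 counts in 8 of the 14 and at most 2.95 in the others.

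FOCAD (ENSG00000188352, chr9:20658309-20995955, plus strand), which encodes focadhesin, a protein found at focal adhesions, was expressed in every library and marked the telomeric side. It was at 3.80 to 10.5 TPM in the 12 libraries, with a median of 5.58, and at 3.22 to 19.8 TPM in the 14, with a median of 4.28. The ranges overlapped with and without library 23, beyond which the 14 reached 6.57 TPM. On the log2(TPM + 1) scale the mean was 2.76 ± 0.34 (SD, n = 12) and 2.53 ± 0.57 (SD, n = 14), a difference smaller than the SD within either set. Without library 23 the mean of the 14 was 2.39 ± 0.20 (SD, n = 13), and the difference was then larger than either SD, so this comparison rests on library 23.

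On the centromeric side, CAAP1 (ENSG00000120159, chr9:26840685-26892803, minus strand), which encodes an inhibitor of caspase activity, was expressed in every library. It was at 18.2 to 32.7 TPM in the 12, with a median of 26.3, and at 9.004 to 34.8 TPM in the 14, with a median of 11.4. PLAA (ENSG00000137055, chr9:26903372-26947242, minus strand), which encodes a ubiquitin-binding partner of VCP, was at 27.4 to 47.7 TPM in the 12, with a median of 33.3, and at 11.2 to 39.3 TPM in the 14, with a median of 13.02. The ranges overlapped through library 23 alone, and without it the highest value of the 13 was 14.1 TPM for CAAP1 and 15.9 TPM for PLAA, below every one of the 12. The medians were 2.31-fold and 2.55-fold higher in the 12, and 2.35-fold and 2.57-fold higher without library 23. PLAA shares 78 of its 5357 31-base words with IFT74, its neighbour.

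In the order of median levels, PLAA, CAAP1 and FOCAD stood highest in the 12 libraries, followed by MTAP, KLHL9 and HACD4. The ranges of PLAA and CAAP1 overlapped, those of CAAP1 and FOCAD and of FOCAD and MTAP did not, and those of MTAP, KLHL9 and HACD4 overlapped in turn. In the 14 libraries without library 23 the order was PLAA, CAAP1, KLHL9, FOCAD, MTAP, DMRTA1 and HACD4. There the ranges of CAAP1 and KLHL9 and of DMRTA1 and HACD4 did not overlap, and those of all other neighbours in the order did.

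The edges of the stretch around CDKN2A were placed by walking from CDKN2A along the protein-coding genes of chromosome 9 to the first gene at 1 TPM or more in every library of a set. A gene inside it may thus reach 1 TPM in some libraries. In the 12 libraries the stretch lay between FOCAD and CAAP1. It spanned 25 protein-coding genes over 5.84 Mb, of which 24 were under 1 TPM in every library and TUSC1 reached 1 TPM in 9. Of 3880 such stretches in the genome of the same libraries 13, this one included, held at least as many genes. The same stretch in the 14 lay between KLHL9 and TUSC1 and spanned 12 genes over 4.34 Mb. Of 3850 stretches there 58, this one included, held at least as many. Of these 12 genes 10 were under 1 TPM in every library, while MTAP reached 1 TPM in 11 of the 14 and DMRTA1 in 1, library 23. The flanking genes of the 14 were the same without library 23. The genes in the stretch of the 12 only were HACD4, interferon genes, KLHL9 and TUSC1. HACD4 and these interferon genes were under 1 TPM in all 26 libraries. At this level the stretches thus differed through KLHL9 and through TUSC1, which was at 0 counts in 3 of the 12. Silent genes are no measure of DNA copy number, since genes such as the interferons, ELAVL2 and IZUMO3 can be unexpressed where they are present, and DNA was not analysed here.

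Taken library by library, the edges varied further. In 9 of the 12 libraries the stretch ran from FOCAD to TUSC1, 24 genes over 4.68 Mb, and in the other 3 it ran on to CAAP1. In 10 of the 14 it ran from MTAP to TUSC1, 5 genes over 3.74 Mb, in 3 from KLHL9 to TUSC1, and in library 23 from MTAP to DMRTA1, where only CDKN2A and CDKN2B, within 0.509 Mb, lay between. The libraries in which the stretch began at KLHL9 were 9, 17 and 19, where MTAP was at 0.672, 0.959 and 0.515 TPM.

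TUSC1, a tumour suppressor candidate between ELAVL2 and CAAP1, made the difference at the centromeric edge. It had 0 counts in libraries 3, 6 and 7, all labelled Panc-1 and with low SMAD4, where 0 counts allow up to 3 counts. In the other 9 of the 12 libraries it was at 7.78 to 12.5 TPM. The 14 libraries had it at 1.51 to 7.15 TPM, below each of these 9. The 12 libraries therefore fell apart at TUSC1 while they were alike at KLHL9, DMRTA1 and ENSG00000264545.

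**Figure D3:**
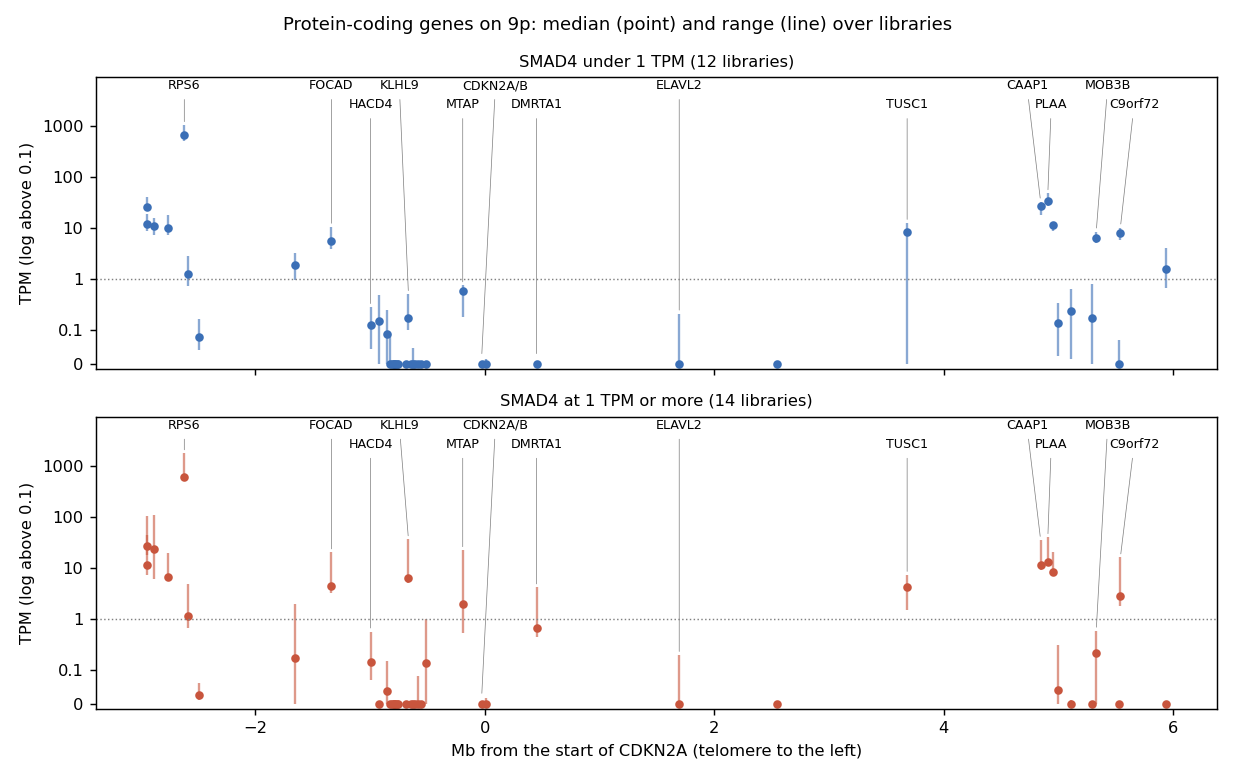
TPM of protein-coding genes by their distance in Mb from the start of CDKN2A, with the median as a point and the range over libraries as a line, for the 12 libraries with SMAD4 under 1 TPM (top) and the 14 others (bottom). Between FOCAD and CAAP1 only TUSC1 rises above 1 TPM in the 12 libraries, whereas in the 14 KLHL9, MTAP and TUSC1 do by their medians, and DMRTA1, at a median of 0.641 TPM, does through library 23.

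The other genes nearby were read in the same libraries. The interferon cluster, which encodes antiviral type I interferons, held 16 genes, all under 1 TPM in all 26 libraries. Within each set alone, 31.1% of all protein-coding genes were under it in the 12 and 33% in the 14. At most 1 count in any of the 26 was found for 13 of the 16. Within each set alone, 11.4% and 12.7% of protein-coding genes had no more. The shares over all 26 libraries, which cannot be larger, were not computed. The 3 above this level were IFNB1, IFNW1 and IFNE. IFNB1, which lies toward FOCAD, had up to 4.91 counts in the 12 libraries and 0 in the 14. IFNE, which lies between KLHL9 and MTAP, had 0 counts in all of the 12 and up to 19.3 counts in the 14, in library 23, and up to 5.98 counts without it. The pseudogenes KHSRPP1 and IFNWP19, which also lie between KLHL9 and MTAP, were at 5.10 to 70.8 TPM and 3.87 to 68.1 TPM in the 14 libraries, and at no more than 1 count and 0 counts in the 12. Without library 23 their highest values were 13.03 and 19.05 TPM. Beyond CAAP1 and PLAA, toward the centromere, genes were found with higher levels in the 12. MOB3B, a member of the MOB family of kinase activators, was at 5.10 to 8.45 TPM in the 12 and at most 0.577 TPM in the 14, and LINGO2 was at 0.667 to 3.99 TPM in the 12 and at 0 counts in each of the 14.

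Library 23 carried higher levels of 7 of the 10 genes than any other library with SMAD4. Compared with the median of the 13 others, KLHL9 was 5.76-fold, DMRTA1 6.44-fold, MTAP 11.5-fold and ENSG00000264545 9.29-fold higher in it. FOCAD was 4.62-fold and HACD4 3.96-fold higher on the telomeric side, and CAAP1 3.11-fold and PLAA 3.04-fold higher on the centromeric side. These are the 7 genes that passed the filter on low counts, and each was over 2-fold the median of the 13. Of the 11883 protein-coding genes with a median of at least 1 TPM in the 13, 3.95% were over 2-fold, and FOCAD, KLHL9, MTAP, CAAP1 and PLAA belong to these. CDKN2A and CDKN2B were at 0 counts in library 23 as well. TUSC1, at 0.825 times the median of the 13, was not raised, although it lies between genes that were.

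The ratio in library 23 varied along the chromosome. The median ratio over 27 genes from the end of 9p to ZDHHC21 was 2.21, where the other 13 libraries had 0.846 to 1.14. Library 23 was the highest for 22 of these 27. The exceptions included the most telomeric genes, WASHC1, ZNG1A and KANK1, with ratios of 1.08, 1.35 and 0.811. Over 18 genes from SNAPC3 to C9orf72, the block that contains the genes described here, the median ratio was 3.44, where the others had 0.864 to 1.16. From ACO1 to the centromere it was 1.19 and on the long arm 1.17. In the 12 libraries, library 21, also labelled BxPC3, was the highest in the block from SNAPC3 to C9orf72, at 1.54 times their median. FOCAD reached its highest value of the 12 in library 21, 10.5 TPM. The cause was not tested, and with 1 library per clone the values rest on a single measurement.

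**Figure D4:**
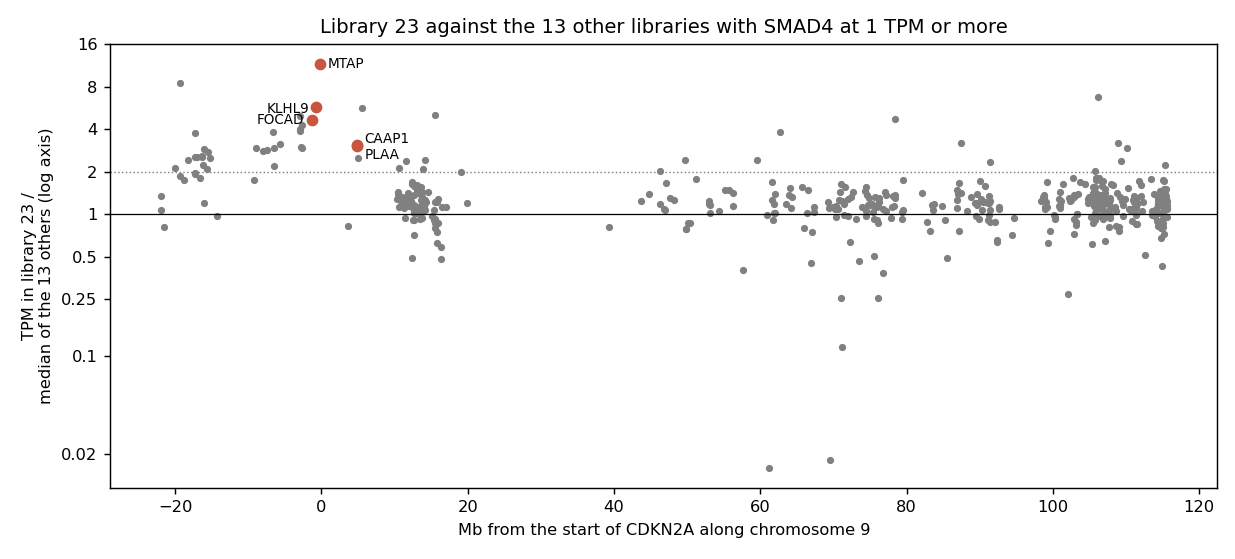
Ratio of TPM in library 23 to the median of the 13 other libraries with SMAD4 at 1 TPM or more, on a log axis, for each gene of chromosome 9 with a median of at least 1 TPM in the 13, by distance in Mb from the start of CDKN2A. The described genes are red, with HACD4 and DMRTA1 too low to be plotted. The ratios lie mostly above 2 from the end of 9p to C9orf72 and reach 11.5 at MTAP. They fall to medians of 1.19 toward the centromere and 1.17 on the long arm, each still the highest of the 14 libraries.

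None of these genes was called between the labels. Of the libraries labelled BxPC3, 5 had low SMAD4 and 7 had SMAD4, and of those labelled Panc-1, 7 and 7. A difference that follows the SMAD4 sets was therefore spread over both labels, and this test could hardly call it. The lack of calls does not show that BxPC3 and Panc-1 are alike at these genes. With edgeR's quasi-likelihood test over all 26 libraries, 0 of 16008 genes were called between the libraries labelled BxPC3 and Panc-1 (background 0%) at an adjusted p under 0.05 and a log2 fold change over 1, while 365 had an unadjusted p under 0.05. DESeq2 called 2 genes and limma 0, and none of the genes described here was among them. Of the 7 that could be tested, 2 had an unadjusted p under 0.05. MTAP was at 0.515 to 21.8 TPM with a median of 0.853 in the libraries labelled BxPC3 and at 0.182 to 2.16 TPM with a median of 0.652 in those labelled Panc-1. Its log2 fold change, Panc-1 minus BxPC3, was -1.60 (SE 0.58) in edgeR, with an adjusted p of 0.999982. FOCAD had a log2 fold change of -0.47 (SE 0.22) with the same adjusted p. Library 23 is labelled BxPC3 and holds the highest value of both genes. With the SMAD4 set as a covariate in edgeR, 5 of the 7 had an unadjusted p under 0.05 and none was called, and the smallest adjusted p was 0.617963, for KLHL9.

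Within the 12 libraries, KLHL9 was at 0.188 to 0.503 TPM in the 5 labelled BxPC3 and at 0.101 to 0.323 TPM in the 7 labelled Panc-1. MTAP was at 0.571 to 0.746 TPM in the 5 and at 0.182 to 0.632 TPM in the 7. The ranges overlapped for both genes, and edgeR within the 12 called neither. Within the 14 libraries, DMRTA1 was at 0.432 to 0.887 TPM in the 6 labelled BxPC3 other than library 23 and at 0.437 to 0.750 TPM in the 7 labelled Panc-1.

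KLHL9 reached 1 TPM in all of the 14 libraries, MTAP in 11 and DMRTA1 in 1. The sequences just before the starts of these genes are shown because their medians were at least 3.40-fold higher in the 14 libraries than in the 12. Each is the 250 bases upstream of the RefSeq start on GRCh38.p14, read 5′ to 3′ on the strand of the gene, with GC boxes (GGGCGG on either strand, so also CCGCCC) in capitals. They are MTAP at chr9:21802386-21802635 on the plus strand, KLHL9 at chr9:21335405-21335654 on the minus strand and DMRTA1 at chr9:22446574-22446823 on the plus strand.
MTAP: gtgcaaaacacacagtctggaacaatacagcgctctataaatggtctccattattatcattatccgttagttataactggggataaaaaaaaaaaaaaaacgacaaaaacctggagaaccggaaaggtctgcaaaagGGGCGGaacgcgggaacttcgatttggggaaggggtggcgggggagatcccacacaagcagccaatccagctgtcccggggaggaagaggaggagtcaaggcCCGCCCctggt
KLHL9: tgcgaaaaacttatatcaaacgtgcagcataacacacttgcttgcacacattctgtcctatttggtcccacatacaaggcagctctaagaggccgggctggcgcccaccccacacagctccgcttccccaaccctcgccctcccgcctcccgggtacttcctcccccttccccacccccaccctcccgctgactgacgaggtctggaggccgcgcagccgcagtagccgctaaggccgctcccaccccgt
DMRTA1: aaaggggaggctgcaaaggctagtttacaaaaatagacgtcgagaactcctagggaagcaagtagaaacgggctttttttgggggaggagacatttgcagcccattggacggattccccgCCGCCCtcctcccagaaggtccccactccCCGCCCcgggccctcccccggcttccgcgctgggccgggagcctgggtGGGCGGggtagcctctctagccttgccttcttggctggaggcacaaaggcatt
The MTAP sequence holds 2 GC boxes and DMRTA1 3, and KLHL9 holds none in this window. Over all 35116 promoter sequences of the same length, 42.6% hold at least 1. G and C make up 50% of the MTAP sequence, 62.8% for KLHL9 and 61.6% for DMRTA1, beside a median of 58% over all. Promoter sequences were found for 9 of the 10 genes, CAAP1 being the exception, and 8 of the 9 hold a GC box in at least 1 of their promoters. That count is by gene, with up to 6 promoters for a gene, whereas the 42.6% is by promoter, so the values are not comparable.

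The pathways that these genes belong to were followed in lists, given by counts of genes whose ranges did not overlap between the sets. The 10 genes themselves are left out of these lists, and each count is to be read beside the 14.6% of all genes tested that were higher in the 12 and the 15.4% that were higher in the 14. Of 14 genes of the CDK4/6 and RB pathway, all passed the filter on low counts, 1 was higher in the 12 and 1 in the 14. CDK6, a kinase that p16INK4A inhibits, was higher in the 12 libraries, at 25.8 to 55.4 TPM against 0.784 to 19.6 TPM. CDKN2C, which encodes p18INK4C of the same inhibitor family, was higher in the 14, at 33.7 to 73.7 TPM against 6.07 to 17.95 TPM. The remaining 12 overlapped, although RBL1, a relative of RB1, was also higher in the 12 libraries when library 23 was left out. Among those that overlapped were CDK4, at 139 to 221 TPM in the 12 and 154 to 240 TPM in the 14, and RB1, at 33.1 to 67.4 and 17.5 to 46.8 TPM.

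Of 14 genes of methionine salvage, polyamine synthesis and the PRMT5 complex, all passed the filter, 1 was higher in the 12 (background 14.6%) and 4 were higher in the 14 (background 15.4%). PNP, a purine nucleoside phosphorylase, was at 67.5 to 113 TPM in the 12 and 28.5 to 51.8 TPM in the 14. The 4 were ODC1, SRM and SMS, which make the polyamines putrescine, spermidine and spermine in turn, and ADI1, a dioxygenase of the salvage pathway. SRM was at 67.2 to 132 TPM in the 12 and 193 to 261 TPM in the 14, and SMS at 103 to 144 TPM and 146 to 399 TPM. PRMT5, an arginine methyltransferase that methylthioadenosine inhibits, was at 87.9 to 136 TPM in the 12 and 73.5 to 123 TPM in the 14, so the ranges overlapped.

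Of 16 relatives and partners of the described genes, 14 passed the filter, 2 were higher in the 12 (background 14.6%) and 2 in the 14 (background 15.4%). DMRTA2, a close relative of DMRTA1, was at 4.89 to 8.93 TPM in the 12 libraries, where DMRTA1 had 0 counts, and at most 0.0176 TPM in the 14. SKIC2, a helicase of the SKI complex that FOCAD associates with, was at 15.9 to 30.7 TPM in the 12 and 2.69 to 7.53 TPM in the 14. The genes higher in the 14 were CUL3, the ubiquitin ligase scaffold, at 87.3 to 119 TPM against 48.4 to 73.6 TPM, and HACD1. On the log2(TPM + 1) scale, the median over the tested genes of the difference between set medians, the 12 minus the 14, was 0.04 for the CDK4/6 and RB list, -0.25 for the methionine salvage, polyamine and PRMT5 list and 0.34 for the relatives and partners, beside -0.01 over all 16008 genes tested.

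The genes whose levels varied most like those of FOCAD, CAAP1 and PLAA were sought by Spearman's rho of TPM within each set, over 12380 genes, keeping the lower of both values. These libraries share their depth and composition, so the values are descriptions. For FOCAD they were ICA1L, at 0.73, and TRIM65, at 0.71. For CAAP1 they were TRAPPC9, at 0.81, and ZKSCAN5, at 0.79, and for PLAA they were ZNF850, at 0.74, and HROB, at 0.72. CAAP1 and PLAA, which are neighbours, had a rho of -0.19 in the 12 and 0.27 in the 14. FOCAD and PLAA, on opposite sides of the stretch, had 0.20 and 0.51.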

How the data were processed

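Messenger RNA of 26 SCDCLs was measured once each. Per the labels and methods, the authors assigned reads with kallisto 0.46.1 to transcripts of Ensembl (GRCh38), and deposited TPM for each gene and library. The deposited estimated counts were made by the authors from TPM and mean transcript length, scaled to the library total, and being fractional they were rounded to whole counts for edgeR and DESeq2. The deposited table also gives the mean transcript length in bases, and another 780 columns, which hold 30 resampled estimates per library, were not used. Reads were not analysed here.

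Genes were matched to GENCODE release 44, 36315 of 41078 by Ensembl identifier, and coordinates are from that release on GRCh38. Groups came from the labels, 12 libraries BxPC3 and 14 Panc-1. The division at a SMAD4 level of 1 TPM is a description made from the same libraries, with no test across it. A gene counted as silent in a set under 1 TPM in every library. Counts of 0 were read against a level of 3 counts, and differences are on the log2(TPM + 1) scale, which understates the change of low genes. Promoter sequences were taken from RefSeq (GRCh38.p14), and 31-base words were compared over GENCODE transcripts on both strands.

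The labels were compared with edgeR 4.0.16 (quasi-likelihood F test, TMM factors, filterByExpr, Benjamini-Hochberg adjustment over all 16008 genes, adjusted p under 0.05 and log2 fold change over 1), in R 4.3.3. Alternatives were DESeq2 1.42.0, limma 3.58.1 on log2(CPM + 1), other size factors, no filter, the SMAD4 set as a covariate and fits within each set, together with other detection levels, pseudocounts, a SMAD4 threshold of 10 TPM and CPM in place of TPM. Leaving out library 23 was added after its values had been seen. No value is a replicate of another, since each library is 1 clone, and p-values measure only the spread between these libraries. The count test and the search for silent stretches were tested on simulated data with known answers. Other values were computed with Python 3.11.15, numpy 2.4.6, pandas 2.3.3 and scipy 1.17.1.

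The genes named are the 10 genes, SMAD4, genes of chromosome 9 near them that reach 1 TPM or lie between them, the flanking expressed genes, and 2 to 4 examples from each list of pathway, interferon, relative and marker genes. One further pathway list is not reported here. Genes, lists and tests were chosen with earlier results of these data known.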

Additional observations from a re-analysis of the deposited data

How the results depend on the processing

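Between the labels, DESeq2 called 2 genes where edgeR called 0, and limma, other size factors, no filter, the SMAD4 covariate and fits within each set called 0. At a detection level of 0.1 TPM, 3 of the 10 genes were silent in the 12 libraries with low SMAD4 and 2 in the 14, and 4 were silent in the 12 when silence meant under 5 estimated counts. The stretch around CDKN2A held 6 protein-coding genes in the 12 at 0.1 TPM and 25 at 0.5 TPM. It held 29 there at 5 TPM and 24 when the median of the set was used. In the 14 it held 2 at 0.1 TPM, 5 at 0.5 TPM, 29 at 5 TPM and 5 by the median. With the level chosen, its telomeric edge in the 14 moved between RPS6, KLHL9 and MTAP. Its centromeric edge there moved between DMRTA1, TUSC1 and CAAP1. The telomeric edge in the 12 was MTAP at 0.1 TPM and RPS6 at 5 TPM, as in the 14, and FOCAD otherwise. At 5 TPM both edges were the same in both sets. Without BxPC3 replicate 23, the library labelled 23, 4 genes in place of 2 did not overlap between the sets. The difference of medians for KLHL9 was -4.52 with a pseudocount of 0.1, -1.11 with 5 and -3.64 on CPM, and for DMRTA1 -2.89, -0.17 and -1.53, always lower in the 12. Under 68 of the alternative values the result stayed within its limits and under 16 it moved. These limits were wide. The MTAP difference, -0.91, was held within them at -1.61 with a pseudocount of 0.1 and at -0.32 with 5. No difference of medians changed direction, and a SMAD4 threshold of 10 TPM gave the same sets. No paired analysis was possible because the labelled groups share no replicate number. At these depths a gene at 0 counts may hold up to 3. Under about 1 TPM the counts behind a level differed by gene. They were 36.4 to 75.4 for DMRTA1 in the 14 without library 23, and 5.55 to 27.9 for HACD4 in the 12. Some reads can be shared with other genes.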
